A study of Mus musculus with 23 samples.

Results

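Loss of p16 was read here as the mean of a pair of differences, P16 KO minus WT and APP NLGF with P16 KO minus APP NLGF alone, so that each gene has 1 value of log2 change averaged over both App genotypes. The members are the 12 libraries labelled as lacking p16, of 23 in all, set against the other 11. They comprise 6 of genotype P16 KO (called p16KO below) and 6 of genotype APP<NLGF/NLGF>P16<KO/KO> (AppNLGF_p16KO), and the libraries with p16 are 6 WT and 5 APP NLGF (AppNLGF). Each library holds poly-A RNA of both hippocampi of a mouse aged about 5 months, untreated as far as the labels say, and libraries keep the labels' sample numbers, 1 to 23. Counts were made for 37173 genes, of which 19423 had enough reads to be tested. The labels give neither the strain, litter or sex of the mice nor which stretch of Cdkn2a is deleted, they name no batch, and library numbers run by genotype, so that genotype and order of handling cannot be told apart.

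The protein p16 is 1 of the products of Cdkn2a. It binds the kinases Cdk4 and Cdk6 and keeps cyclin D from activating them, which leaves the Rb proteins unphosphorylated and the E2F factors, which drive the genes of DNA replication, held in check. Cdkn2a also encodes p19Arf from an overlapping reading frame, which stabilises p53, and both products accumulate with age and in senescent cells. The NLGF allele of App is a knock-in of familial Alzheimer mutations read from the mouse's own App promoter, and it leads to amyloid plaques in hippocampus and cortex.

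The libraries were deep and similar in size, with 40.7 to 61.2 M counts per library (median 55.1 M) and 2.79% to 3.99% of counts from the mitochondrial genome. The hippocampal markers Prox1, of dentate granule cells, and Wfs1, of CA1, were present in every library, at 56.8 to 128.7 and 118.5 to 174 CPM (a gene's counts scaled to a common library total). Ttr, the most abundant choroid plexus gene, varied from 78.7 to 5397 CPM. Levels of Xist and of Y chromosome genes such as Ddx3y show libraries of both sexes in every group. One library stood apart from its group on chromosome 4. In the library labelled AppNLGF_p16KO 22, genes of chromosome 4 that differed between p16KO and WT lay near the AppNLGF level. Over 18 such genes, with the WT mean set to 0 and the p16KO mean to 1, its median position was 0.305. The other AppNLGF_p16KO libraries lay between 0.689 and 1.13 and the AppNLGF libraries between -0.058 and 0.387. In 13 of the 18 genes it fell inside the AppNLGF range. Over 42 genes of other chromosomes called in the same comparison its median position was 1.216, within the 0.651 to 1.578 of the rest of its group and above the AppNLGF libraries (0.112 to 0.771). The 0.651 belongs to AppNLGF_p16KO 23, which thus lay inside the AppNLGF range on these genes. Library 22 was kept, because the labels define the groups, and several results, though not every gene, are given without it as well. The library AppNLGF_p16KO 21 passed the submitters' distance rule for outliers (squared Mahalanobis distance 12.4 on 5 principal components, limit 11.07), and removing it together with 22 is given where it matters. AppNLGF_p16KO 23 did not pass it, but on the first component it lay apart from its group. It was at 16.18, where the rest of the group ran from -31.69 to -6.45 and AppNLGF from -0.95 to 21.07.

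Cdkn2a itself, the gene targeted in these mice, was scarce with or without the deletion. It lies on chromosome 4 (GRCm38, 89274471 to 89294653), and counts of the whole gene do not separate p16 from p19Arf. WT libraries held 0 to 6 reads and p16KO libraries 0 to 2. The AppNLGF libraries 13 to 17 held 2, 6, 9, 4 and 4 reads, and the AppNLGF_p16KO libraries 18 to 23 held 0, 6, 6, 2, 8 and 2. Summed over groups, the 12 libraries labelled as lacking p16 held 28 reads and the other 11 held 42. The mean of both differences was -0.0284 CPM (exact permutation test within App backgrounds, two-sided, 426888 assignments, p = 0.135), and p ran from 0.0587 to 0.284 when 1 library was left out. A loss of Cdkn2a reads was therefore not shown at this depth, and directions below refer to the labels.

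The next genes along the chromosome did pass. Cdkn2b, which encodes the related Cdk inhibitor p15, was measured at 0.457 to 0.815 CPM in WT (median 0.482) and 0.374 to 1.17 in p16KO (0.812). AppNLGF libraries 13 to 17 were at 0.647, 0.639, 0.574, 0.888 and 0.904 CPM, and AppNLGF_p16KO libraries ran from 0.73 to 1.29 (1.04). Groups overlap in both backgrounds, and 10 of the 12 libraries lie above the mean of the matching group with p16. The average log2 change was 0.57 ± 0.16 (SE), with adjusted p = 0.0272. That call was lost in 5 of 35 alternative fits, among them those without AppNLGF_p16KO 21 (adjusted p = 0.0503), p16KO 9 (0.0552) or p16KO 12 (0.0508), with a range of 0.0101 to 0.0609. Here and below, the 35 include a fit without libraries past the distance limit. It left out AppNLGF_p16KO 21 alone, so it repeats the fit without that library, and a call lost there is counted under both. Mtap, the methionine salvage enzyme beside it, fell from 13.1 ± 1.17 (SD, n = 6) to 10.5 ± 0.696 CPM (n = 6) without the knock-in and from 13 ± 0.94 (n = 5) to 12.1 ± 1.85 CPM (n = 6) with it. Its average log2 change was -0.21 ± 0.06 (adjusted p = 0.0287, range 0.00897 to 0.0636 over the alternatives, lost without AppNLGF 17 at 0.0561 and with length and GC trends removed). App did not pass (log2 -0.03 ± 0.03, adjusted p = 0.614).

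Averaged over both App genotypes, p16 loss went with many small changes. Of 19423 genes, 2522 (13%) passed an adjusted p of 0.05 in edgeR's quasi-likelihood test, 1488 of them higher (7.66%) and 1034 lower (5.32%). The median absolute log2 change of these genes was 0.213, and 196 changed by more than 1.5-fold (69 up, 127 down). At an adjusted p of 0.01 there were 167 genes (0.86%), 134 up and 33 down. The number rested on single libraries. It was 1913 without AppNLGF_p16KO 22 (1167 up, 746 down), 1410 without AppNLGF_p16KO 21, 474 without both (353 up, 121 down), 762 without AppNLGF 16 and 5117 without AppNLGF_p16KO 23. As shares of the genes tested these were 9.88%, 7.29%, 2.42%, 3.88% and 26.5%, in the same order. Counts of gene lists given below for these fits have these shares, not 13%, as their background. The 24 named genes with the smallest p, 12 rising and 12 falling, kept their call in each of the 34 or 35 alternative fits that tested them. Many of the other genes named below lost theirs in at least 1 of these fits.

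Alad, Hdhd3, Tusc1 and Cyp2j13, all on chromosome 4, were the named genes that rose with the smallest p. Alad, the enzyme that joins 5-aminolevulinate molecules in the second step of heme synthesis, was at 16.7 to 18.6 CPM in WT (median 18.2) and 27.3 to 43.2 in p16KO (35.2). With the knock-in it was at 18.7, 20.8, 23.1, 18.3 and 19.3 CPM in AppNLGF 13 to 17, and at 23 to 39.7 in AppNLGF_p16KO (36.9). The groups separate fully without the knock-in, and with it library 22 alone reaches into the AppNLGF range. The average change was 1.85-fold (log2 0.89 ± 0.08, adjusted p = 2.41e-06), and 8.1e-09 without library 22. Hdhd3, a hydrolase gene that lies beside Alad, went from 4 to 6.14 CPM in WT (4.72) to 8.4 to 11.2 in p16KO (9.67). It was at 4.86, 3.84, 5.06, 4.14 and 4.54 CPM in AppNLGF 13 to 17 and at 6.1 to 11.4 in AppNLGF_p16KO (9.64). Here no library overlaps in either background, although library 22 is the lowest of its group. The change was 2.01-fold (log2 1.01 ± 0.1, adjusted p = 2.56e-06). The 250 bases before the RefSeq start of each gene (build GRCm38.p6, minus strand) are shown because this neighbouring pair carried the smallest p-values. Neither holds the 3 factor motifs searched below.
Alad chr4:62520064-62520313: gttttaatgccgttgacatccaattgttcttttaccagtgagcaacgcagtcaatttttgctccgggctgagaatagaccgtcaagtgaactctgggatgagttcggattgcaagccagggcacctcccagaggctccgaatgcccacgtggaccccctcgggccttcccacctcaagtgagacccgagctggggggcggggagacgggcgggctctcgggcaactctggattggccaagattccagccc
Hdhd3 chr4:62502201-62502450: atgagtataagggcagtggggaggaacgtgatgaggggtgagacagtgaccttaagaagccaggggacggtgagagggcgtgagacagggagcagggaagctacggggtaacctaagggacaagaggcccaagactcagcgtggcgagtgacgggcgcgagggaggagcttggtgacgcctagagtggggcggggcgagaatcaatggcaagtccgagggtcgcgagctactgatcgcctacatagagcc

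Tusc1, a candidate tumour suppressor gene, lies 4.1 Mb from Cdkn2a. It was at 5.63 to 7.05 CPM in WT (median 6.1) and 7.77 to 10.4 in p16KO (9). AppNLGF 13 to 17 held 6.59, 6.54, 5.96, 5.93 and 5.67 CPM, and AppNLGF_p16KO 6.98 to 10.7 (9.16). All 12 libraries lie above every library of the matching group with p16. The change was 1.5-fold (log2 0.58 ± 0.07, adjusted p = 2.95e-05), equal to 2 decimals in both backgrounds. Cyp2j13, a cytochrome P450 of the arachidonic acid family, was rare, at 0.034 to 0.0732 CPM in WT and 0.154 to 0.741 in p16KO. It was at 0.0571, 0.0365, 0.0522, 0.142 and 0.0733 CPM in AppNLGF 13 to 17 and at 0.0374 to 0.468 in AppNLGF_p16KO (median 0.364). Library 22 gave the 0.0374 and lies near the bottom of the AppNLGF range, while the other 5 are above it. The average was 5.59-fold (log2 2.48 ± 0.34, adjusted p = 0.000313), and log2 2.60 without library 22 (adjusted p = 3.87e-06).

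**Figure D1:**
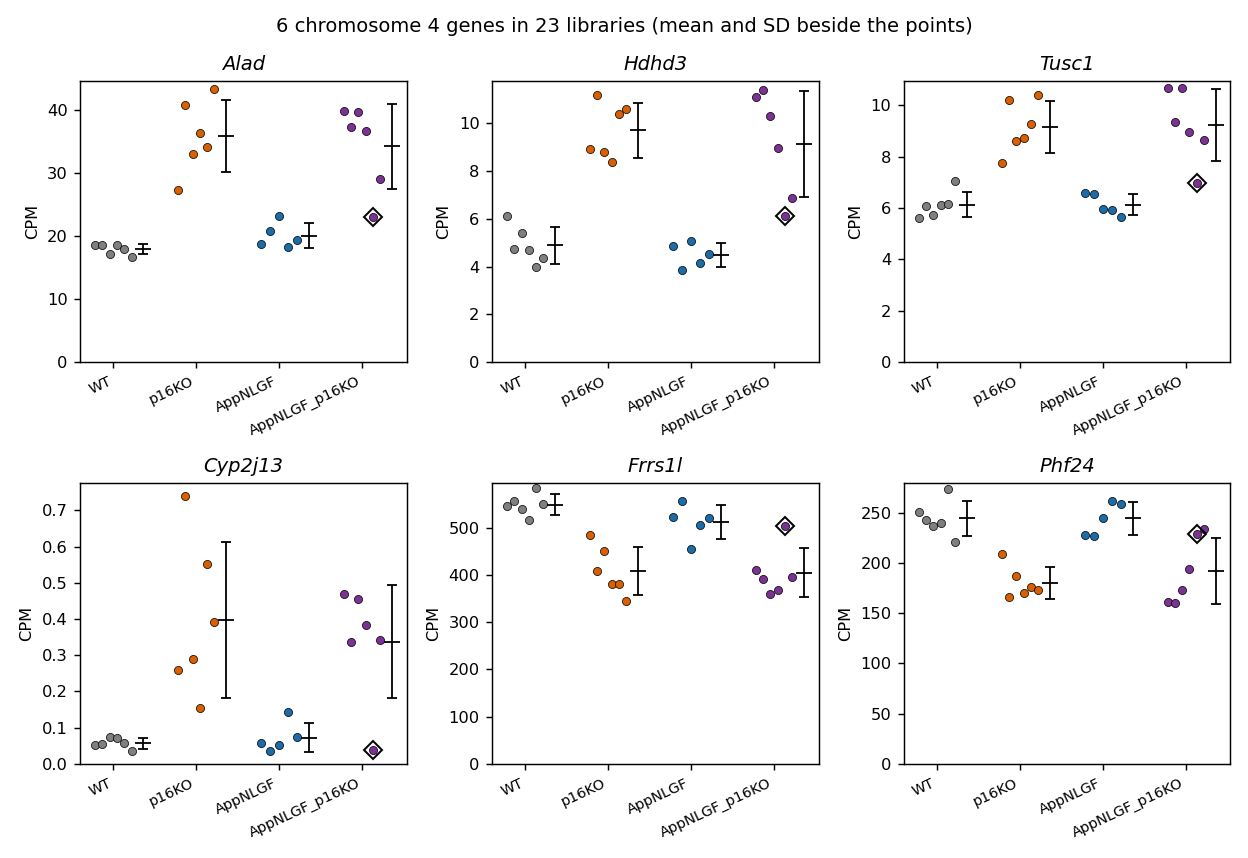
Each panel plots the CPM (linear axis from 0) of a chromosome 4 gene in all 23 libraries by genotype, 1 point per library, with mean and SD beside the points and an open diamond around the library labelled AppNLGF_p16KO 22. Alad, Hdhd3, Tusc1 and Cyp2j13 were higher and Frrs1l and Phf24 lower in libraries labelled as lacking p16, and library 22 sits at or near the AppNLGF points, as with 505 CPM of Frrs1l against 361 to 410 in the rest of its group.

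The other named genes that rose changed by 1.23-fold to 1.44-fold. Nubp2, which helps to assemble cytosolic iron-sulfur clusters, rose from 24 ± 1.68 to 31.6 ± 2.89 CPM without the knock-in and from 27.3 ± 2.95 to 34 ± 3.46 CPM with it (log2 0.36 ± 0.05, adjusted p = 0.00188). Nans, the sialic acid synthase gene of chromosome 4, changed by log2 0.32 ± 0.05 (adjusted p = 0.00355). Romo1, a small protein of the mitochondrial inner membrane, changed by log2 0.39 ± 0.07 (adjusted p = 0.00402). The same adjusted p was reached by Dnaic1, a motile cilium dynein chain (log2 0.52 ± 0.09), Scp2, a peroxisomal sterol carrier (log2 0.38 ± 0.07), and Ipp (log2 0.4 ± 0.07), which lie on chromosome 4. It was also reached by Btbd19 of the same chromosome (log2 0.43 ± 0.07) and by Ap2s1, the small subunit of the endocytic adaptor AP-2, on chromosome 7 (log2 0.29 ± 0.05). Only Hdhd3, Tusc1, Ipp, Pex16 and Pbx2 rose with no overlap between groups in either background (5 of 19423 genes, 0.0257%), and no gene fell in that way. Pex16, of peroxisome formation (log2 0.18 ± 0.04, adjusted p = 0.0112), and the homeobox gene Pbx2 (log2 0.13 ± 0.03, adjusted p = 0.0111) were named after their values were seen. No gene separated all 12 libraries from all 11 others.

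Among falling genes, Frrs1l and Phf24 had the smallest p. Frrs1l, whose product helps to assemble AMPA-type glutamate receptors, was at 516 to 584 CPM in WT (median 549) and 346 to 485 in p16KO (396). It was at 523, 557, 456, 506 and 521 CPM in AppNLGF 13 to 17 and at 361 to 505 in AppNLGF_p16KO (394). The 505 is again library 22, and the rest of that group lies below every AppNLGF library. The average log2 change was -0.38 ± 0.06 (adjusted p = 0.00112, and 3.45e-05 without library 22). Phf24, linked to GABA-B receptor signalling, was at 221 to 274 CPM in WT (242) and 166 to 209 in p16KO (174). With the knock-in, AppNLGF 13 to 17 held 228, 227, 245, 262 and 259 CPM, and AppNLGF_p16KO 160 to 234 (184), with libraries 22 and 23 at 229 and 234 inside the AppNLGF range. Its average log2 change was -0.4 ± 0.06 (adjusted p = 0.00207).

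Cd2ap, an actin-binding adaptor of chromosome 17 known as a human Alzheimer risk gene, was at 25.8 to 33.6 CPM in WT (median 31) and 24.2 to 26.8 in p16KO (24.8). It was at 31.8, 29.6, 30.7, 31.4 and 33.7 CPM in AppNLGF 13 to 17 and at 17.5 to 26.1 in AppNLGF_p16KO (24.6). WT 1, at 25.8, was the only library with p16 that lay within the range of its p16-lacking group. The log2 change was -0.35 ± 0.05 (adjusted p = 0.00224), and -0.17 with length and GC trends removed (adjusted p = 0.00965, range 1.48e-06 to 0.0107). The remaining falling genes of this set included the zinc finger gene Zfp110 (log2 -0.29 ± 0.05, adjusted p = 0.00489), the Wnt-cleaving protease Trabd2b (-0.76 ± 0.14, 0.00489) and the histone H2B ubiquitin ligase Rnf20 (-0.25 ± 0.05, 0.00528). Pakap (-0.51 ± 0.09) and the sperm membrane gene Eqtn (-1.32 ± 0.24) had adjusted p of 0.00528 and 0.00536. Of the 12 falling genes, 8 lie on chromosome 4, as do 9 of the 12 rising ones.

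Chromosome 4, which carries Cdkn2a, held a larger share of called genes than the other chromosomes together. On it 217 of 1110 genes tested passed (19.5%), against 2305 of 18313 elsewhere (12.6%), and at an adjusted p of 0.01 the figures were 44 (3.96%) and 123 (0.672%). By 10 Mb steps from Cdkn2a, the share was 15.2% to 33.3% from 60 Mb on the centromere side to 30 Mb on the other. Steps from 30 to 70 Mb on that other side held 14.9% to 17%, near the 16.2% of the step from 20 to 30 Mb. On the centromere side the share was 17.9% from 60 to 70 Mb, and 5.26% and 5% beyond 70 Mb. Within 30 Mb of Cdkn2a, 71 of 292 genes passed (24.3%), and 64 of these have a proper symbol. Without library 22 the share was 17.5% on chromosome 4 and 9.42% elsewhere, and at 0.01 the numbers were 37 (3.34%) and 41 (0.225%). Without libraries 21 and 22 they were 34 on chromosome 4 and 14 on all the others. With length and GC trends removed, 21.7% of chromosome 4 genes and 16% of the rest passed.

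**Figure D2:**
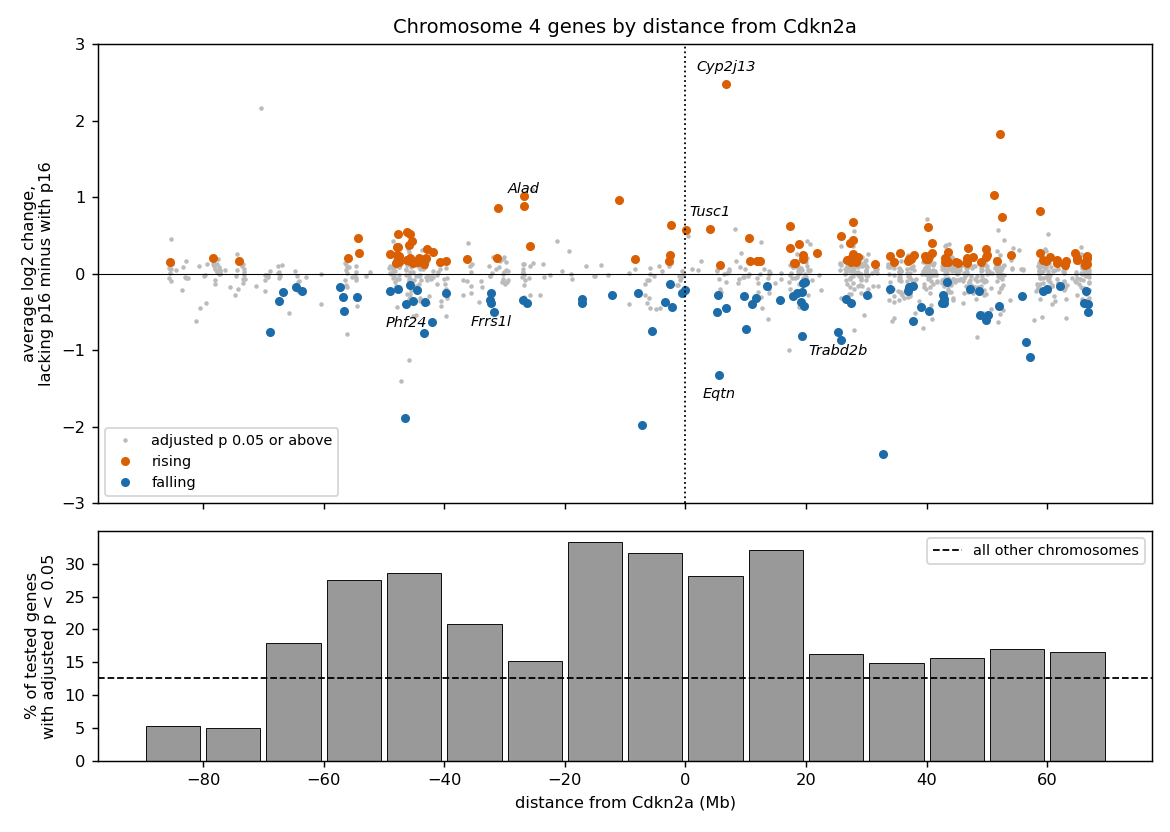
The upper panel plots the average log2 change (libraries lacking p16 minus libraries with p16) of each chromosome 4 gene tested against its distance from Cdkn2a in Mb, with genes past an adjusted p of 0.05 in orange (rising) or blue (falling) and 1 gene outside the axis. The lower panel gives the percentage of tested genes that passed in 10 Mb steps, with a dashed line at 12.6% for all other chromosomes, and steps on both sides of Cdkn2a stand above that line.

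Among the 64 named genes around Cdkn2a, 35 rose (log2 0.11 to 2.48) and 29 fell (-0.11 to -1.32). They do not share a pathway by name. In the first 6 Mb, Slc24a2, a neuronal sodium, calcium and potassium exchanger, was at 615 to 1020 CPM in WT (median 840) and 531 to 718 in p16KO (622). AppNLGF 13 to 17 held 733, 688, 719, 897 and 800 CPM, and AppNLGF_p16KO 340 to 712 (565). WT and p16KO overlap through WT 1, and the knock-in groups through AppNLGF_p16KO 23. This gave a log2 change of -0.44 ± 0.1 (adjusted p = 0.0122). Acer2, the Golgi ceramidase, rose by log2 0.64 ± 0.18 (adjusted p = 0.0285), with 31.6 CPM in p16KO 7 against 10.6 to 15.8 in the other p16KO libraries. Its call was lost in 6 of 35 alternatives, without AppNLGF 17 (adjusted p = 0.0565), AppNLGF_p16KO 21 (0.0523) or WT 5 (0.0503) among them, and ranged from 0.00911 to 0.0624. Klhl9, a substrate adaptor of a ubiquitin ligase (log2 -0.25 ± 0.06, adjusted p = 0.0165), lost its call with length and GC trends removed (0.341, range 0.00281 to 0.341).

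Farther out, several named genes belong to known pathways. The proton pump subunits Atp6v1g1 (log2 0.37 ± 0.07, adjusted p = 0.00489) and Atp6v0b (log2 0.22 ± 0.04, adjusted p = 0.00841) rose. Stil, which is needed to duplicate centrioles, changed by log2 -0.86 ± 0.2 (adjusted p = 0.0143). Tle1, a Groucho-type corepressor, changed by log2 -0.34 ± 0.08 (adjusted p = 0.0118) and Tut4, which adds uridines to RNA ends, by -0.37 ± 0.08 (adjusted p = 0.00906). Also higher were the mitochondrial prolyl-tRNA synthetase Pars2 (log2 0.34 ± 0.07, adjusted p = 0.0074), Mroh7 (log2 0.62 ± 0.12, adjusted p = 0.0062) and Hectd3, a ubiquitin ligase (log2 0.21 ± 0.04, adjusted p = 0.0042). Over the alternatives 31 of the 64 kept their call in all fits, 18 rising and 13 falling.

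The remaining named genes of this window are given by name, ordered along the chromosome. Those that rose were Lurap1l, Rraga, Plin2, Jun, Efcab7, Pgm1, Raver2, Ak4, Leprot, Lrrc42, Ndc1, Txndc12, Kti12, Agbl4, Cyp4x1os, Lrrc41, Akr1a1, Toe1, Urod and Eri3, besides those described. Those that fell were Fkbp15, Zfp618, Ptprd, Mpdz, Ccdc171, Adamtsl1, Dennd4c, Ift74, Ror1, Cachd1, Sgip1, Fyb2, Tceanc2, Lrp8, Cc2d1b, Zfyve9, Rab3b, Nrd1, Mob3c and Ccdc163. The fall of Dennd4c and Zfyve9 turned into a rise that did not pass with length and GC trends removed (log2 0.03 and 0.04). Calls for Jun and Cyp4x1os were the least stable among the risers, ended in 25 and 23 of 35 alternatives.

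Each App background gave few calls by itself, and the genes called in one moved the same way in the other. P16 loss without the knock-in (p16KO minus WT) passed in 60 genes (0.309%), and with the knock-in (AppNLGF_p16KO minus AppNLGF) in 6 (0.0309%). These comparisons share no library, but both draw on the same estimate of each gene's spread, made from all 23 libraries. Their p-values are therefore not independent of each other. Of the 60 genes, 59 changed in the same direction in the knock-in background, where 67.8% of all genes had the same sign in both. Of the 60, 43 had an unadjusted p under 0.05 there (71.7%, against 23.5% of all genes), and 5 passed adjusted. Their median change was log2 0.398 in the background where they were called and 0.247 in the other. Leaving chromosome 4 out, 41 of 42 kept the direction and 29 had p under 0.05. The 6 genes called with the knock-in were Alad, Hdhd3, Tusc1, Cd2ap, Gm13453 and Gm20075.

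No gene passed the test of a different response to p16 loss in the backgrounds. The interaction term of the edgeR model called 0 genes (smallest adjusted p = 0.897), and 1021 had an unadjusted p under 0.05 (5.26%), while DESeq2 called 1. Among the 2522 genes of the average, 76 (3.01%) had an interaction p under 0.05. The lowest p belonged to C5ar2, a complement receptor gene with log2 0.49 without the knock-in and -0.46 with it (edgeR interaction, unadjusted p = 0.000249, adjusted p = 0.897), and to Bnip5 with -0.31 and 0.3 (unadjusted p = 0.000297, adjusted p = 0.897). Rab3b, a synaptic vesicle GTPase, had log2 -0.68 without the knock-in and -0.16 with it (edgeR interaction, unadjusted p = 0.00684, adjusted p = 0.897). It was at 51.4 to 62.9 CPM in WT, 29 to 46.3 in p16KO, and 55.3, 55.4, 53.5, 51.4 and 59.9 in AppNLGF 13 to 17. AppNLGF_p16KO ran from 36.8 to 69.5 (median 46.2), with library 22 at 69.5, above every library of the series. The average log2 change was -0.42 ± 0.09 (adjusted p = 0.00929), and -0.48 without library 22.

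**Figure D3:**
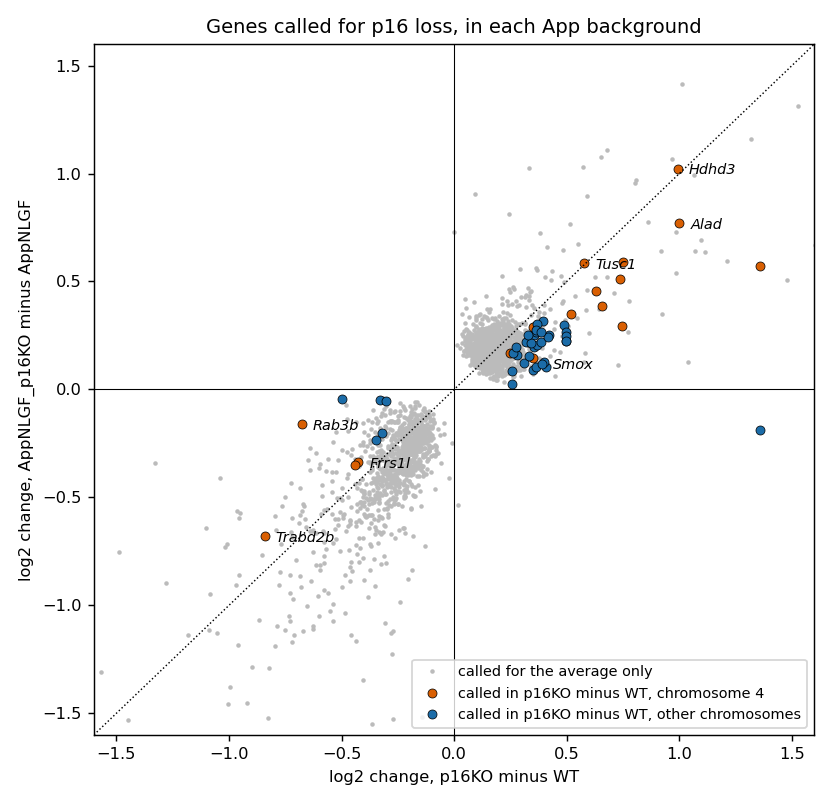
Each point is a gene called for the average p16 effect or for p16KO minus WT, with its log2 change without the App knock-in on the horizontal axis and with it on the vertical axis, orange and blue marking the 60 genes called in p16KO minus WT. Of the 60, 59 have equal signs on both axes. For genes called for the average, 2521 of 2522 have equal signs, which follows largely from choosing them on the mean of both values. Outside the axes lie 45 genes called for the average alone and 5 of the 60.

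Nuclear genes of the respiratory chain were the list with the most calls. Of 75 members tested, 57 rose and 0 fell (76% called, where 13% of all genes were called, 7.66% rising and 5.32% falling), with a median log2 change of 0.188 (0.158 without the knock-in, 0.232 with it) against 0.004 over all genes. Cox6a1, a subunit of cytochrome c oxidase, was at 236 to 270 CPM in WT (median 244) and 264 to 334 in p16KO (286). AppNLGF 13 to 17 held 260, 286, 282, 247 and 262 CPM, and AppNLGF_p16KO 289 to 362 (314). The knock-in groups do not overlap, and WT 1, at 270, is the WT library that reaches into p16KO. Cox6a1 rose by log2 0.26 ± 0.05 (adjusted p = 0.00457). Ndufs3 (log2 0.26 ± 0.05, adjusted p = 0.00489) and Ndufa7 (log2 0.3 ± 0.05, adjusted p = 0.0052) encode subunits of complex I, and Uqcrq (log2 0.33 ± 0.06, adjusted p = 0.00626) a subunit of complex III. These 4 kept their call in all 35 alternatives. The list's calls ran from 37 to 64 when 1 library was left out, were 48 without library 22, 28 without 21 and 22, and 55 with length and GC trends removed.

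The promoter of Cox6a1 is shown because it holds a site for NRF1, a known activator of respiratory chain genes (the letters GCGC, AT and GCGC in a row, in capitals, searched on both strands in 250 bases before the RefSeq start, GRCm38.p6, minus strand). This motif was present in 4 of 63 promoters of the list (6.35%) and in 188 of 13329 promoters of all genes tested (1.41%).
Cox6a1 chr5:115348959-115349208: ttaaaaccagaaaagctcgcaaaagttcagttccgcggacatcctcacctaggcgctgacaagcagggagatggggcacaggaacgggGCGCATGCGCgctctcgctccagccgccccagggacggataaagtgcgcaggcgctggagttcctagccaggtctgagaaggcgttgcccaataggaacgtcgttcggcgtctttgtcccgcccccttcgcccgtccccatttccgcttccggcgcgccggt
Among promoters of rising genes 31 of 1210 held it (2.56%) and among those of falling genes 10 of 746 (1.34%). The letters GCGC at its ends are shared with the E2F motif searched below, so both can fall on the same bases.

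Protein genes of the mitochondrial genome did not rise with them. Of 7 tested, 0 rose and 3 fell (42.9%, against 5.32% falling and 13% called over all genes, median log2 -0.189). The complex I gene mt-Nd5 was at 1950 to 3820 CPM in WT (median 2540) and 1620 to 2390 in p16KO (2150). It was at 2530, 2740, 2950, 3270 and 2970 CPM in AppNLGF 13 to 17 and at 1560 to 3050 in AppNLGF_p16KO (2040). Groups overlap in both backgrounds, through WT 1, WT 6 and AppNLGF_p16KO 23. On average mt-Nd5 changed by log2 -0.38 ± 0.1 (adjusted p = 0.0241). The falls of mt-Nd2 (log2 -0.24 ± 0.07, adjusted p = 0.0262) and mt-Nd4 (-0.19 ± 0.06, 0.0318) were smaller. With length and GC trends removed 0 of 7 passed, at adjusted p of 0.0861, 0.589 and 0.994 for the named 3, and 0 passed without AppNLGF 16 or without libraries 21 and 22.

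Cytosolic ribosomal protein genes rose in 31 of 79 and fell in 0 (39.2%, against 7.66% rising and 13% called over all genes). Their median log2 change was 0.157. Rplp1, of the ribosomal stalk, was at 196 to 247 CPM in WT (median 212) and 256 to 358 in p16KO (304). The AppNLGF libraries 13 to 17 held 263, 299, 311, 224 and 247 CPM, and AppNLGF_p16KO 280 to 392 (304). WT and p16KO separate, and the knock-in groups overlap between 280 and 311. Rplp1 rose by log2 0.38 ± 0.07 (adjusted p = 0.00536). Its partner Rplp2 changed by log2 0.22 ± 0.04 (adjusted p = 0.00602), Rps15 by 0.31 ± 0.06 (adjusted p = 0.00621) and Rpl26 by 0.28 ± 0.05 (adjusted p = 0.00709). Ribosomal protein genes have many near-identical pseudogene copies, so reads of single members are uncertain. The list's calls ran from 20 to 37 when 1 library was left out, were 14 without libraries 21 and 22 and 30 with length and GC trends removed.

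Proteasome subunit genes rose in 15 of 31 (48.4%), and all 31 had a positive value (median log2 0.133). The subunits of the catalytic core led, with Psmb3 at log2 0.27 ± 0.06 (adjusted p = 0.00958), Psmb4 at 0.23 ± 0.05 (0.0111), Psmb5 at 0.26 ± 0.06 (0.0111) and Psmb2, of chromosome 4, at 0.19 ± 0.05 (0.016). Calls in this list ran from 5, without AppNLGF 16, to 24, without AppNLGF_p16KO 23, and were 5 without libraries 21 and 22. Over all genes the shares called in these fits were 3.88%, 26.5% and 2.42%. Heat shock and chaperone genes rose in 5 of 28 (17.9%, against 7.66% rising and 13% called over all genes, with a median of 0.036), among them Hspb8 (log2 0.28 ± 0.07, adjusted p = 0.0162), the inducible Hspa1b (0.46 ± 0.12, 0.0196), Hspe1 (0.28 ± 0.08, 0.0222) and Dnajb1 (0.25 ± 0.07, 0.0285). The calls of Hspb8, Hspe1 and Dnajb1 ended in 1, 2 and 5 of 35 alternatives, with adjusted p up to 0.0549, 0.0877 and 0.0763. The list's count was 1 without libraries 21 and 22, 2 without AppNLGF 16, and at most 6 with 1 library left out.

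**Figure D4:**
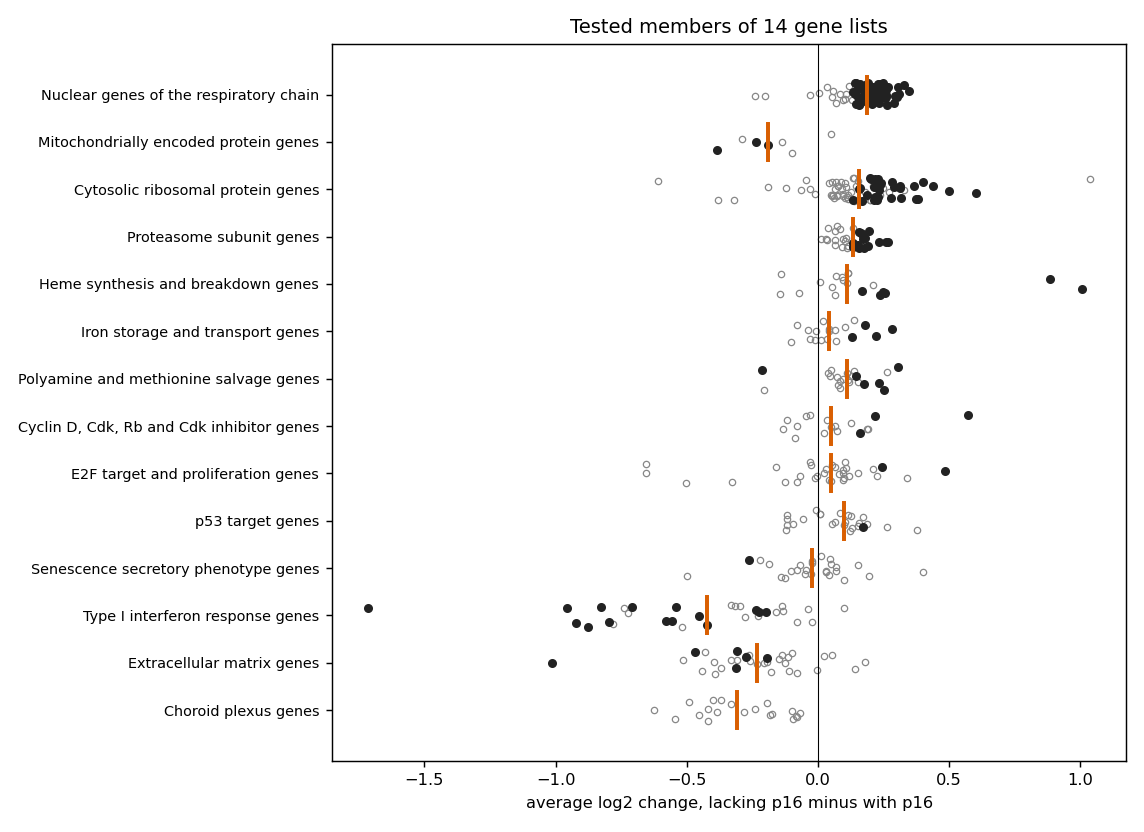
Each point is a tested member of 1 of 14 gene lists at its average log2 change (horizontal axis), filled where the adjusted p was under 0.05, with an orange bar at the list's median and vertical scatter within a row for legibility only. Respiratory chain genes centre on 0.188 with 57 of 75 filled, interferon response genes on -0.422 with 15 of 31 filled, and choroid plexus genes on -0.308 with 0 of 20 filled.

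Of 19 genes listed for heme synthesis and breakdown 6 rose and 0 fell (31.6%, against 13% called over all genes, median log2 0.11). One of the 6, Hdhd3, is not a heme gene and stands in the list for its place beside Alad. Besides these neighbours the risers changed by log2 0.17 to 0.26. The count was 4 to 9 when 1 library was left out and 4 without libraries 21 and 22. Urod, the fifth enzyme of the pathway and also on chromosome 4, was at 35.4 to 38.2 CPM in WT (median 37) and 37.4 to 49.1 in p16KO (43.2). It was at 36.7, 41.5, 36.8, 35.5 and 38.2 CPM in AppNLGF 13 to 17 and at 38.5 to 54.1 in AppNLGF_p16KO (45). WT 1, 2 and 4 lie above p16KO 7, the lowest of its group, and AppNLGF 14 lies above AppNLGF_p16KO 23. The log2 change was 0.26 ± 0.05 (adjusted p = 0.00709). Slc25a38, the mitochondrial glycine carrier, changed by log2 0.23 ± 0.05 (adjusted p = 0.0115). Iron genes rose in 4 of 19 (21.1%, against 7.66% rising over all genes, median 0.041), with Ftl1 and Fth1, the ferritin chains, at log2 0.28 ± 0.07 (adjusted p = 0.0148) and 0.18 ± 0.05 (0.0299) and the iron-sulfur scaffold Iscu at 0.22 ± 0.06 (0.0175). The calls of Ftl1 and Fth1 ended in 1 and 9 of 35 alternatives, with adjusted p up to 0.061 and 0.106. The iron count was 1 without libraries 21 and 22 and ran from 2 to 4 when 1 library was left out, the 2 without WT 5, AppNLGF 16, AppNLGF 17 or AppNLGF_p16KO 21, among others.

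Polyamine and methionine salvage genes rose in 5 of 22 and fell in 1, Mtap (27.3%, against 13% over all genes, median log2 0.112). From 4 to 10 rose when 1 library was left out (10 without AppNLGF_p16KO 23), and 3 without libraries 21 and 22. Smox, which oxidises spermine, was at 36.4 to 41.4 CPM in WT (median 39) and 48.5 to 53.6 in p16KO (50.6). It was at 42.8, 45.2, 46.4, 45.2 and 38.4 CPM in AppNLGF 13 to 17 and at 41 to 55.1 in AppNLGF_p16KO (46.4). The separation is complete without the knock-in, and with it 3 of 6 libraries lie within the AppNLGF range. The average log2 change was 0.25 ± 0.05 (adjusted p = 0.00709), made of 0.39 and 0.12, and the interaction did not pass (adjusted p = 0.897, unadjusted 0.0108). Azin2, an activator of ornithine decarboxylase on chromosome 4 (log2 0.23 ± 0.05, adjusted p = 0.012), and Dohh, which completes the hypusine of eIF5A (0.3 ± 0.07, 0.0132), rose too. So did the spermidine synthase Srm, also on chromosome 4 (0.18 ± 0.05, 0.0196), though not without libraries 21 and 22 (0.0725).

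In the pathway in which p16 acts, the share of genes called was near that of all genes. Of 17 genes of cyclin D, its kinases, Rb proteins and their inhibitors, 3 rose and 0 fell (17.6%, against 13% over all genes, median log2 0.048). Without libraries 21 and 22, where 2.42% of all genes passed, 0 of the 17 did. The 3 that rose were Cdkn2b, the inhibitor Cdkn2d (log2 0.22 ± 0.05, adjusted p = 0.0165) and the p16 target Cdk4 (0.16 ± 0.04, 0.0206). The last 2 lost their call without libraries 21 and 22 (0.0608 and 0.0725), and Cdk4 also without AppNLGF 16. Of 32 E2F target and proliferation genes, 2 rose and 0 fell (6.25%, median 0.051). Pcna, the replication clamp, was at 18.8 to 23.6 CPM in WT (median 20.2) and 22.4 to 25.1 in p16KO (23.8). AppNLGF 13 to 17 held 20.4, 21.3, 19.8, 20.5 and 18.7 CPM, and AppNLGF_p16KO 19.6 to 27.2 (24.6). Groups overlap in both backgrounds, as WT 1 reaches into the p16KO range and AppNLGF_p16KO 23, at 19.6, into the AppNLGF range. The rest of the AppNLGF_p16KO group lies at 24.4 to 27.2 CPM. Pcna rose by log2 0.24 ± 0.05 (adjusted p = 0.00709). Birc5, survivin, rose by log2 0.48 ± 0.14 at mean levels under 1 CPM (adjusted p = 0.0288), a call that 4 of 35 alternatives ended, among them the fits without AppNLGF 16 (0.058) or p16KO 12 (0.0518), with a range of 0.0167 to 0.0684.

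The E2F motif TTTNGCGC was present in 3 of 27 promoters of the E2F target list (11.1%), 1.8% of all 13329 promoters, 2.4% of those of rising genes and 2.68% of those of falling genes. It was not found in the 250 bases of Pcna. Of 25 p53 target genes 1 rose, Sesn1 (log2 0.17 ± 0.05, adjusted p = 0.0247), and 0 fell (4%, median 0.098), and the call of Sesn1 ended in 3 of 35 alternatives (up to 0.0609). Of 26 genes secreted by senescent cells 0 rose and 1 fell, the insulin-like growth factor binding protein Igfbp5 (log2 -0.26 ± 0.09, adjusted p = 0.0493), whose call ended in 24 of 35 alternatives (up to 0.143). The shares of these lists were at or below the 13% of all genes, except for the 17.6% of the first.

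Many interferon response genes fell in libraries lacking p16. Of 31 antiviral genes that type I interferon induces, 0 rose and 15 fell (48.4%, against 5.32% falling and 13% called over all genes). Their median log2 change was -0.422 (-0.304 without the knock-in, -0.5 with it). Because the RNA came from whole tissue, fewer cells of a type and less RNA per cell cannot be told apart, here and for the cell type lists below. Ifit1, which binds uncapped viral RNA, was at 1.55 to 3.64 CPM in WT (median 2.34) and 1.2 to 2.48 in p16KO (1.28). It was at 2.76, 2.14, 2.54, 4.33 and 6.28 CPM in AppNLGF 13 to 17 and at 0.961 to 2.1 in AppNLGF_p16KO (1.65). The knock-in groups do not overlap, and without the knock-in p16KO 10, at 2.48, stands above the other 5 of its group. The log2 change was -0.92 ± 0.19 (adjusted p = 0.00877, range 0.000111 to 0.0309 over the alternatives).

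Oasl1, an inhibitor of Irf7 translation, was at 0.136 to 0.486 CPM in WT (median 0.272) and 0.0386 to 0.159 in p16KO (0.0755). It was at 0.286, 0.237, 0.226, 0.284 and 0.684 CPM in AppNLGF 13 to 17 and at 0 to 0.171 in AppNLGF_p16KO (0.129). The knock-in groups separate, and WT 1 at 0.136 is the WT library within reach of p16KO. Oasl1 changed by log2 -1.71 ± 0.33 (adjusted p = 0.00709). Ifih1, the RNA sensor MDA5 (log2 -0.42 ± 0.09, adjusted p = 0.0106), and Ifit3 (-0.83 ± 0.18, 0.0115) fell as well. These 4 kept their call in all alternatives that tested them. The library AppNLGF 17 was the highest of its group in Ifit1 and Oasl1, and without it 6 of 31 passed with a median of -0.234. Without AppNLGF 16 the number was also 6, with a median of -0.424. It was 11 without library 22, 5 without libraries 21 and 22, and 15 with length and GC trends removed.

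The promoters of Ifit1 and Oasl1 (GRCm38.p6, plus strand) are shown for the interferon-stimulated response element (GAAA, any pair of bases, GAAA), searched on both strands and in capitals below. The element was present in 9 of 19 promoters of the list (47.4%), in 5 of the 12 of members that fell (41.7%) and in 334 of all 13329 (2.51%). Ifit1 holds it in a tandem pair on the opposite strand, and Oasl1 has none in this window.
Ifit1 chr19:34640639-34640888: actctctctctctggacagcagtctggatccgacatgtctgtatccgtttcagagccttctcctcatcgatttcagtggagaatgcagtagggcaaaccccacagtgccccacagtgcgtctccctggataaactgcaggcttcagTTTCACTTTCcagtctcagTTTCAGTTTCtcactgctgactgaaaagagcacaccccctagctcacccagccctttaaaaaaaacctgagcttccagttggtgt
Oasl1 chr5:114922990-114923239: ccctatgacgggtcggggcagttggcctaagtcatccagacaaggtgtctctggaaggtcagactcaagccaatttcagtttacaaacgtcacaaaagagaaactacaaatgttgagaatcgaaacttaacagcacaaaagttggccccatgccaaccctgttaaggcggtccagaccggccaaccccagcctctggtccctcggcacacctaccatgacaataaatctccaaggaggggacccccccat

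Of 33 extracellular matrix genes 0 rose and 6 fell (18.2%, against 5.32% falling and 13% called over all genes, median log2 -0.234). The falling count ran from 3 to 17 when 1 library was left out. It was 3 without WT 5, AppNLGF 16 or AppNLGF 17, among others, 17 without AppNLGF_p16KO 23, and 3 without libraries 21 and 22. Over all genes 2411 of 19342 fell without AppNLGF_p16KO 23, and 121 of 19574 without libraries 21 and 22. The laminin chains Lama2 (log2 -0.28 ± 0.06, adjusted p = 0.00939) and Lama4 (-0.31 ± 0.09, 0.0296) and the fibrillin Fbn1 (-0.31 ± 0.08, 0.0151) were among them. The fibrillar collagen Col11a1 was at 4.08 to 24.2 CPM in WT (median 10.9) and 5.2 to 6.8 in p16KO (5.72). It was at 12.3, 13, 7.56, 18.5 and 8.26 CPM in AppNLGF 13 to 17 and at 4.04 to 10.2 in AppNLGF_p16KO (4.86). Most libraries with p16 lie above the others, but WT 1, at 4.08, is below every p16KO library, and AppNLGF_p16KO 22 and 23 lie in the AppNLGF range. Col11a1 changed by log2 -1.01 ± 0.25 (adjusted p = 0.0196). Calls for Lama4 ended in 7 and for Fbn1 in 2 of 35 alternatives (adjusted p up to 0.0941 and 0.089), and with length and GC trends removed 4 matrix genes fell. Meninges and fibroblast genes, which share the tissue border, had 0 of 22 called (median -0.105). Their summed level was 435 to 855 CPM for WT, 459 to 901 for p16KO, 400.5 to 976 for AppNLGF and 480.5 to 817 for AppNLGF_p16KO, and their part in the matrix result was not tested.

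Markers of vessels and of the ventricle lining were called at or below the share of all genes (13%), and choroid plexus genes not at all. Of 23 endothelial and mural genes 0 rose and 3 fell (13%, with 5.32% falling over all genes), namely the growth factor receptors Flt1 (log2 -0.27 ± 0.07, adjusted p = 0.0157) and Kdr (-0.29 ± 0.09, 0.0346) and the smooth muscle myosin Myh11 (-0.81 ± 0.2, 0.0173). The median over that list was -0.019, and the call of Kdr ended in 12 of 35 alternatives (up to 0.186), those of Flt1 and Myh11 only without libraries 21 and 22 (0.059 and 0.0595). Of 20 ependymal cilium genes 2 fell (10%), with Hydin at log2 -0.78 ± 0.18 (adjusted p = 0.0117). Of 20 choroid plexus genes 0 passed. Their median was log2 0.153 without the knock-in and -0.74 with it, and the summed level was 399.9 to 5275 CPM for WT, 1086 to 8309 for p16KO, 2505 to 5715 for AppNLGF and 654 to 4133 for AppNLGF_p16KO. Its most abundant genes Ttr and Enpp2 had log2 -0.08 ± 0.49 and -0.24 ± 0.35 (adjusted p = 0.93 and 0.683).

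Neuronal lists were mixed. Of 41 genes of glutamate receptors and their auxiliary subunits 1 rose and 3 fell (9.76%, median log2 -0.068). The one that rose was Cnih3, an AMPA receptor auxiliary subunit (log2 0.16 ± 0.04, adjusted p = 0.0196), and those that fell were Frrs1l, Grin2b (-0.4 ± 0.12, 0.0297) and Shisa6 (-0.25 ± 0.08, 0.0465). The calls of Grin2b and Shisa6 ended in 6 and 21 of 35 alternatives, up to 0.0697 and 0.106. Of 40 presynaptic release genes 2 rose and 5 fell (17.5%), with Rab3b, the scaffold Rims2 (-0.21 ± 0.05, 0.014) and Syn3 (-0.47 ± 0.11, 0.0148) lower and Rab3a (0.17 ± 0.04, 0.0165) higher. The calls of Rims2, Syn3 and Rab3a ended only without libraries 21 and 22 (0.0501, 0.0513 and 0.061), and that of Cnih3 only without AppNLGF 16 (0.0558). Dentate granule cell genes gave 0 of 20 (median -0.005), CA field genes 3 of 27, all rising (11.1%), and immediate early genes 2 of 30 (6.67%), against 13% over all genes. Without libraries 21 and 22, where 2.42% of all genes passed, 1 presynaptic gene and 0 CA field and immediate early genes did. Without AppNLGF_p16KO 23 there were 15 falling presynaptic and 11 falling glutamate receptor genes. In that fit 26.5% of all genes passed, and 2411 of 19342 fell.

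Among glial lists the share called was 27.8% for astrocyte, 13.6% for homeostatic microglia and 6.67% for plaque-associated microglia genes, against 13% over all genes. It was lower for reactive astrocyte genes (3.7%) and for myelin and oligodendrocyte genes (4.17%). Of 18 astrocyte genes 3 rose and 2 fell (median log2 0.122), with the filament gene Gfap at log2 0.21 ± 0.06 (adjusted p = 0.0337), the membrane protein Mlc1 at 0.19 ± 0.05 (0.0223) and the transcription factor Sox9 at -0.28 ± 0.07 (0.0184). Of 22 homeostatic microglia genes 3 rose, among them Aif1, the IBA1 gene, at 0.37 ± 0.1 (0.0219) and C1qa, of chromosome 4, at 0.21 ± 0.06 (0.0265). Of 30 genes of plaque-associated microglia 2 rose, Apoe (0.17 ± 0.04, 0.0183) and Fth1. Over 35 alternatives Aif1 kept its call, Mlc1 and Apoe lost it in 2, Sox9 in 3, C1qa in 5 and Gfap in 8 (up to 0.07, 0.0699, 0.064, 0.11 and 0.0756). Without libraries 21 and 22, 0 astrocyte, 1 homeostatic and 0 plaque-associated genes passed, and the number of astrocyte genes that rose ran from 0, without AppNLGF 16, to 7, without AppNLGF_p16KO 23. Over all genes the shares called in these fits were 2.42%, 3.88% and 26.5%. Of 24 genes of App and its processing 2 rose and 3 fell (20.8%), with 1 left without libraries 21 and 22, and with the sorting receptor Sorl1 at -0.16 ± 0.04 (adjusted p = 0.0167).

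Gene length and base composition moved with these directions in the same libraries. Among genes with a median transcript over 4000 bases, 0.855% rose and 13.8% fell, and among those of 500 to 1000 bases 12.8% rose and 3.56% fell. The median transcript length was 902 bases for genes that rose, 2228.75 for genes that fell and 1512 for the rest. Below 40% GC, 0.358% rose and 7.4% fell, and above 60% GC 11.2% rose and 0.566% fell. Per library, the level of genes under 1000 bases relative to those over 4000 bases (log2, each gene centred on its mean) ran from -0.157 to 0.006 in WT (median -0.089) and -0.025 to 0.099 in p16KO (0.0295). It was -0.007, 0.03, -0.054, -0.148 and -0.059 in AppNLGF 13 to 17 and -0.061 to 0.202 in AppNLGF_p16KO (0.1095), highest in library 21 and lowest in library 23. Groups overlap in both backgrounds, through WT 1 and AppNLGF_p16KO 23. When each library's trends on length and GC were removed, 3178 genes passed, 2240 up and 938 down (70.5% up, against 59% before), and 1767 were shared with the 2522. The part of length and GC in the gene results was not tested beyond this refit.

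**Figure D5:**
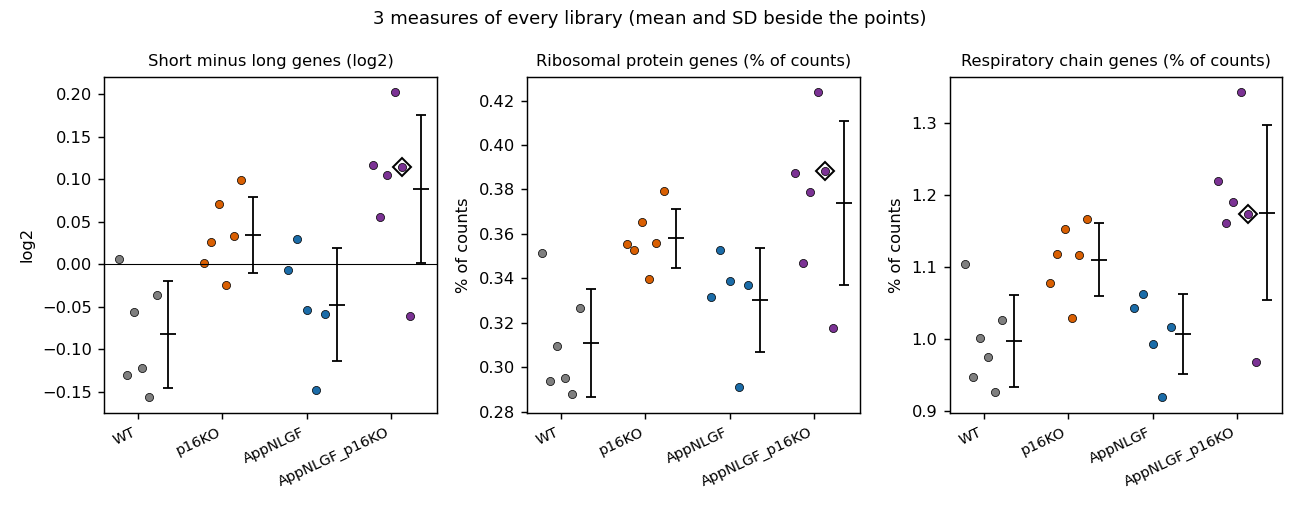
The 3 panels plot, for each of 23 libraries by genotype, the log2 level of short relative to long genes, the percentage of counts from ribosomal protein genes and that from respiratory chain genes, with mean and SD beside the points and an open diamond around the library labelled AppNLGF_p16KO 22 (the axes do not start at 0). Libraries lacking p16 are mostly higher in all 3, with AppNLGF_p16KO 21 highest at 0.202, 0.424% and 1.34%, and AppNLGF_p16KO 23 at -0.061, 0.318% and 0.968% lies within the range of AppNLGF.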

How the data were processed

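The deposited table holds raw counts of reads per gene, made by the authors from stranded poly-A libraries read as 50-base single ends, 1 library per mouse. Per the submitters' processing notes, cutadapt 4.2, Bowtie2 2.3.5, STAR 2.7.10b and DESeq2 1.45.3 were used, with builds GRCm38 and mm39 listed. Gene coordinates in the table equal those of GENCODE M21 (GRCm38) for 36795 of 37060 shared genes. Groups came from the sample titles and labels.

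Counts were tested here with edgeR 4.0.16 (R 4.3.3): TMM normalization, genes kept by filterByExpr with a minimum count of 10, 1 mean per genotype over all 23 libraries, robust quasi-likelihood tests, two-sided, Benjamini-Hochberg adjustment over 19423 genes and a threshold of 0.05. CPM uses TMM-scaled library sizes, except for Cdkn2a, which was too scarce to test and is given per total counts. Scripts were tested on simulated data. Between 40.7 and 61.2 M counts per library limit the precision of genes with few reads.

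Named genes were, by p, the first 12 that rose and the first 12 that fell (clone-named genes left out), called genes with a proper symbol within 30 Mb of Cdkn2a, up to 4 called genes per list, the 4 largest changes, a pair from the interaction, and Cdkn2a, Cdkn2b, Mtap, App, Alad and Hdhd3. Some genes that the rule also names are not reported here. Members and lists were chosen with earlier results of these data known. Alternatives were other size factors and count filters, no robust dispersion, a surrogate variable (sva 3.50.0), a sex score, an additive model, each library's trends on transcript length and GC removed (natural splines of the log2 deviations, given to edgeR as offsets, with GC known for 99.9% of tested genes), DESeq2 1.42.0 and leaving out libraries. The fit without AppNLGF_p16KO 21 and 22 was not planned. Neither was the fit without library 22 and with length and GC trends removed. Promoter sequences are from RefSeq (GRCm38.p6).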

Additional observations from a re-analysis of the deposited data

Results flagged for a closer look

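In 26 genes followed library by library, 104 groups were screened for a library far from the rest of its group, and 9 were found, where chance gives about 1 in 20. Values are CPM. The library labelled AppNLGF_p16KO 22 stood apart in Cyp2j13, with 0.0374 against 0.337 to 0.468 in the rest of its group, and in Frrs1l, with 505 against 361 to 410. The library p16KO 10 stood apart in Cd2ap, with 26.8 against 24.2 to 25.1, and in Ifit1, with 2.48 against 1.2 to 1.54. In the other 5 cases the library differed each time. Acer2 was at 31.6 in p16KO 7 against 10.6 to 15.8. Cdkn2b was at 0.815 in WT 6 against 0.457 to 0.523. Cox6a1 was at 270 in WT 1 against 236 to 245. Oasl1 was at 0.684 in AppNLGF 17 against 0.226 to 0.286. Pcna was at 19.6 in AppNLGF_p16KO 23 against 24.4 to 27.2.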

How the results depend on the processing

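The average p16 effect called 2522 genes. It called 1364 with no count filter, 1410 without libraries past the distance limit (AppNLGF_p16KO 21), 474 with AppNLGF_p16KO 21 and 22 left out, and from 762 (without AppNLGF 16) to 5117 (without AppNLGF_p16KO 23) with 1 library left out. Other single libraries that moved it by over 1.5 times were WT 2 (1624), WT 4 (1523), WT 5 (1180), p16KO 9 (1347), p16KO 12 (1601), AppNLGF 17 (1325) and AppNLGF_p16KO 20 (1650). P16KO minus WT called 60 genes. It called 26 with length and GC trends removed, 34 with library 22 left out as well, 189 without AppNLGF_p16KO 21, 267 without 21 and 22, 469 by DESeq2, and from 7 (without p16KO 9) to 239 (without p16KO 8) with 1 library left out. AppNLGF_p16KO minus AppNLGF called 6. It called 17 with no count filter, 21 without library 22, and 24 when length and GC trends were removed too. The number was 15 without 21 and 22, 676 by DESeq2, and from 2 (without AppNLGF 16) to 4156 (without AppNLGF_p16KO 23) with 1 library left out. The interaction called 0 in every edgeR fit and 1 by DESeq2. The cause of these shifts was not tested.

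With length and GC trends removed, App turned from -0.03 to log2 0.054 (0.055 with library 22 left out), Dennd4c to 0.03 (0.032), Zfyve9 to 0.043 (0.042) and Bnip5 to 0.01. None of these passed under that setting. With 1 library left out, the average of C5ar2 ran from -0.03 to 0.05, that of Bnip5 from -0.032 to 0.038 and that of Ttr from -0.33 to 0.074. The share of calls that rose was 59%, and 70.5% with length and GC trends removed. No paired analysis was possible because each library has a sample number of its own, 1 to 23, that no other group shares. Depth limits genes such as Cdkn2a, with 0 to 9 reads per library.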

Other observations

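The largest average changes belonged to scarce or copied genes whose reads were uneven among libraries of the same group. Gm8719 had 0 reads in the 11 libraries with p16, 47 in 3 p16KO libraries and 37 in 2 AppNLGF_p16KO libraries. BC023719 had 2 reads in WT and 839 in p16KO, 282 in AppNLGF and 1806 in AppNLGF_p16KO. Gm10263 had 2, 683, 288 and 1722 reads in the same order, and Gm7292 had 2925, 47, 1014 and 47. BC023719 and Gm10263 each passed 1 CPM in 0 WT, 2 p16KO, 1 AppNLGF and 5 AppNLGF_p16KO libraries. Gm7292 passed 1 CPM in 3 WT libraries and 1 AppNLGF library. Predicted genes such as these can share reads with near-identical copies, so their counts are uncertain.

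A pair of predicted genes, chosen after their values were seen, were called in both App backgrounds. Gm13453, on chromosome 2, was at 0.0171 to 0.068 CPM in WT and 0.444 to 1.46 in p16KO. AppNLGF 13 to 17 held 0.0952, 0, 0.0696, 0.071 and 0.122 CPM, and AppNLGF_p16KO 0.0748 to 1.3. Gm20075, on chromosome 13, was at 0.068 to 0.256 CPM for WT and 0.874 to 2.02 for p16KO. With the knock-in it was at 0.133, 0.11, 0.139, 0.195 and 0.0733 CPM in AppNLGF 13 to 17 and reached 0.168 to 2 for AppNLGF_p16KO. In both genes the lowest AppNLGF_p16KO value was that of the library labelled AppNLGF_p16KO 22, inside the AppNLGF range.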
